A study of Sus scrofa with 6 samples.

Results

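The genes of the translation machinery were compared between pig ovarian follicles of 3 titled stages. A gene was taken in when a probe set of the array carried its symbol alone and the symbol was that of a cytosolic ribosomal protein (RPL, RPS, RPLP or RPSA), a mitochondrial ribosomal protein (MRPL or MRPS), an initiation factor (EIF1 to EIF6) or an elongation factor (EEF1 or EEF2). Of 6765 genes named by single symbols on the array, 164 met this rule, and they were represented by 237 probe sets. They comprised 58 genes of the cytosolic ribosome, 58 of the mitochondrial ribosome, 41 translation factors and 7 related genes, which are paralogs or partners whose symbols fit the rule (RPL7L1, RPL22L1, RPL26L1, RPL36AL, RPS27L, RPS19BP1 and EEF1AKMT1). Each gene was read from its probe set with the highest mean signal over the 6 arrays.

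Cytosolic ribosomes translate nuclear-encoded messenger RNAs, while mitochondrial ribosomes, whose proteins are made in the cytosol and imported, translate the few subunits of the respiratory chain that mitochondrial DNA encodes. Initiation factors bring the small subunit to the messenger RNA, scan for the start codon and join the large subunit, and elongation factors deliver the aminoacyl-tRNAs and move the ribosome along. In the growing oocyte ribosomes and mitochondria accumulate, and part of the messenger RNA is stored in a repressed form for use after growth ends.

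Follicles had been dissected from ovaries of prepubertal gilts (young female pigs) and sorted by their morphology and diameter, and their total RNA was hybridised to Affymetrix porcine expression arrays. The 3 groups were titled primordial, middle stage and last stage, each with 2 arrays titled as biological replicates. A description attached to all 6 samples calls every one of them primordial, which the titles contradict, and the titles are what the stages were taken from. Words such as rose and fell below compare the titled groups. Whether these groups are steps of growth was not tested. Whether replicates were different animals is not stated in the labels, and each p-value therefore reflects only how far these samples spread, which may be technical.

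The arrays had all been scaled to 1 trimmed mean, and their median signals lay between 119 and 170. The markers of the labelled tissue were not evenly present. Summed signals of 10 oocyte markers were 493 and 459 at the primordial stage, 20027 and 21758 at the middle stage and 882 and 882 at the last stage, low on the primordial and last arrays although follicles of every stage enclose an oocyte. Summed signals of 10 immune markers were 62929 and 61369 at the primordial stage, 1795 and 1442 at the middle stage and 3006 and 5856 at the last stage. Theca markers summed to at most 6390 on the primordial and middle arrays and to at least 19793 on the last arrays, and smooth muscle markers to at most 7387 and at least 27158. Of 6 theca markers, 5 were called higher on the last than on the primordial arrays. CYP11A1 was instead highest at the primordial stage, at 4673 and 4311, against 256 and 1090 at the middle and 1610 and 1872 at the last stage. INSL3, STAR and HSD3B1 were higher on the middle than on the primordial arrays. Stromal fibroblast markers summed to 913 and 689 at the primordial stage, 17506 and 11246 at the middle stage and 13267 and 10110 at the last stage. That sum was low only at the primordial stage, but it was mostly DCN on the other arrays. DCN read 15364 and 9867 at the middle stage and 8430 and 6982 at the last stage. LUM was highest on the last arrays, at 3079 and 1044. COL3A1 was not higher on the middle arrays (149 and 84) than on the primordial arrays (352 and 128). Granulosa markers summed to 41762 and 54041 at the primordial stage, 16681 and 20818 at the middle stage and 66807 and 62516 at the last stage. INHA, FST, NR5A2, CYP19A3 and SERPINE2 were lower on the middle than on the primordial arrays. CYP19A3 read 8971 and 10896 on the primordial arrays, against 1433 and 1924 on the middle arrays. AMH, FSHR and INHBA did not run that way. AMH read 199 and 273 at the primordial stage, 970 and 1764 at the middle stage and 107 and 113 at the last stage. The part of these differences in the results on translation genes was not tested, and in such bulk samples fewer cells of a type and less RNA per cell cannot be told apart. The log2 difference between the 3′ and the 5′ probe set of the actin control, a measure of RNA integrity, was 3.38, 4.6 and 3.73 on average on the primordial, middle and last arrays, and that of the GAPDH control was 3.06, 3.04 and 1.88. For the EF1A control it was 0.84, 1.1 and 0.76.

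Of the 164 genes, 162 passed the filter on low mean signal. The other two were RPS15A, a small subunit protein with signals of 44.8 and 1.80 at the primordial stage, 20.5 and 20.9 at the middle stage and 28.8 and 5.30 at the last stage, and EIF1AY, whose signals did not exceed 26.0 on any array. Differences are on the log2(signal + 16) scale, and a gene was called when the adjusted p of the limma fit over all 14399 probe sets tested was under 0.05. The 3 comparisons share arrays, so their counts are not independent of each other.

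**Figure D1:**
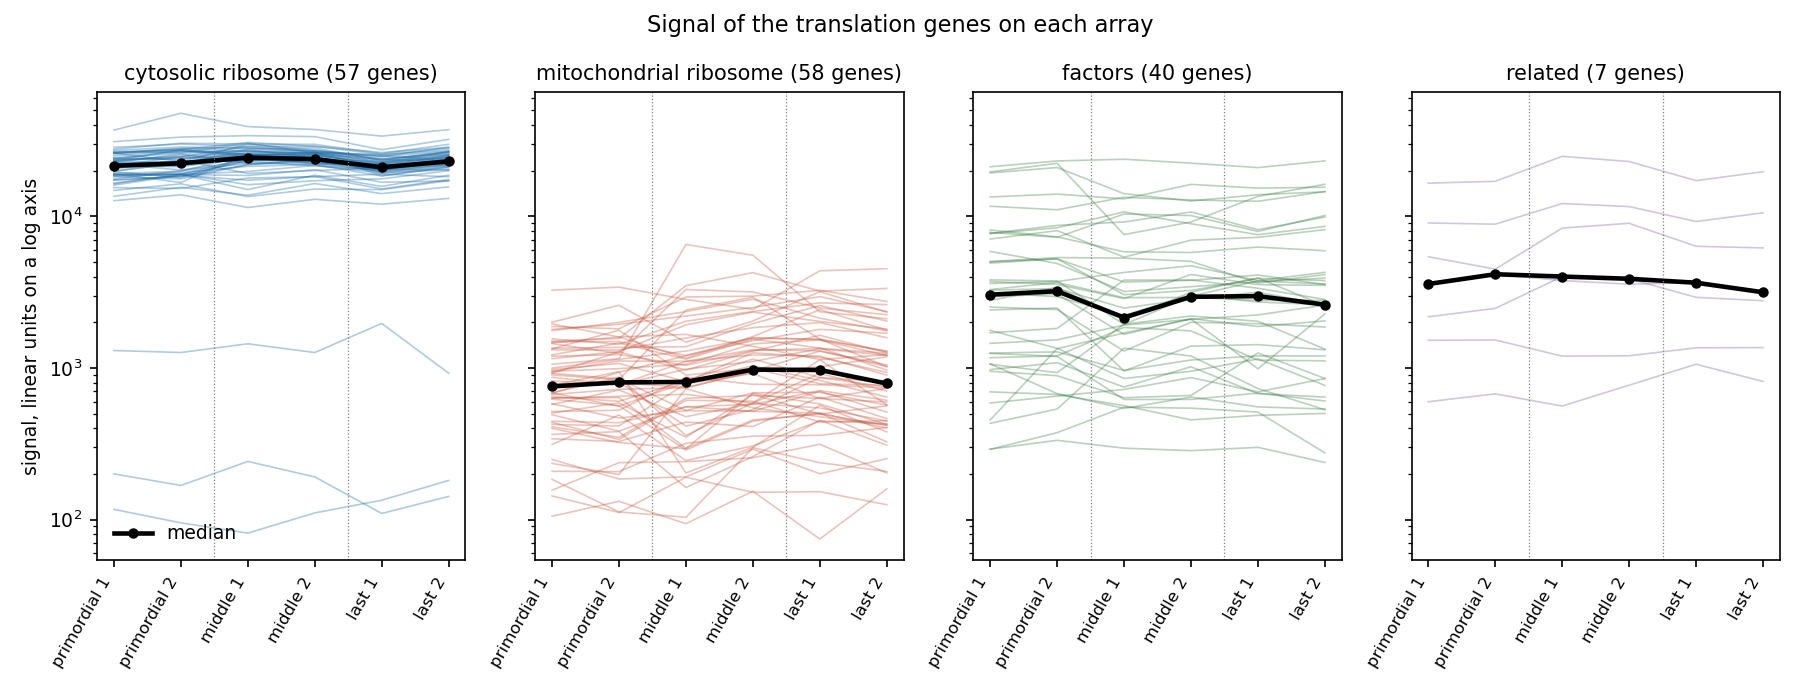
Signal on each of the 6 arrays (x axis) for the 162 genes that passed the filter, 1 thin line per gene, on a log axis; the black line is the median of each class. The cytosolic ribosome lines run nearly flat, while lines of mitochondrial ribosome genes and factors cross between stages.

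Between the middle and the primordial arrays, few cytosolic ribosome genes were called, more mitochondrial ribosome genes were called higher than lower, and more translation factors were called lower than higher. Of 57 cytosolic ribosomal protein genes, 7 were higher and 0 lower on the middle arrays, and their median difference was 0.09. Of 58 mitochondrial ribosomal protein genes, 15 were higher and 6 lower, with a median difference of 0.29. Of 40 factors, 5 were higher and 12 lower, with a median of -0.24, and of 7 related genes 4 were higher and 0 lower, with a median of 0.41. Over the whole array 47.4% of probe sets were called in this comparison, and of 5432 genes 22.9% were called higher and 22.5% were called lower, with a median difference of 0.06. The share of genes called was 12.3% for the cytosolic ribosome, 36.2% for the mitochondrial ribosome and 42.5% for the factors. With the arrays as deposited, none of the 3 classes was therefore called more often than the array at large.

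These directions depended on how the arrays were scaled. Across all probe sets that were tested, the median was 0.22 with the arrays as deposited and -0.02 after each array was centred on its median. After that centring the cytosolic ribosome had 0 genes higher and 6 lower, the mitochondrial ribosome 7 higher and 10 lower, and the factors 3 higher and 19 lower. The class medians were then -0.15 for the cytosolic ribosome, 0.05 for the mitochondrial ribosome and -0.48 for the factors, against -0.18 over all genes. With quantile normalization, which forces all arrays to 1 distribution, the counts of higher and lower genes were 11 and 0 for the cytosolic ribosome, 11 and 8 for the mitochondrial ribosome and 10 and 9 for the factors. The share of all genes called under these other scalings is not given here, so these counts cannot be read against it. Under all 3 scalings the mitochondrial median stood above that of all genes and the factor median below it.

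**Figure D2:**
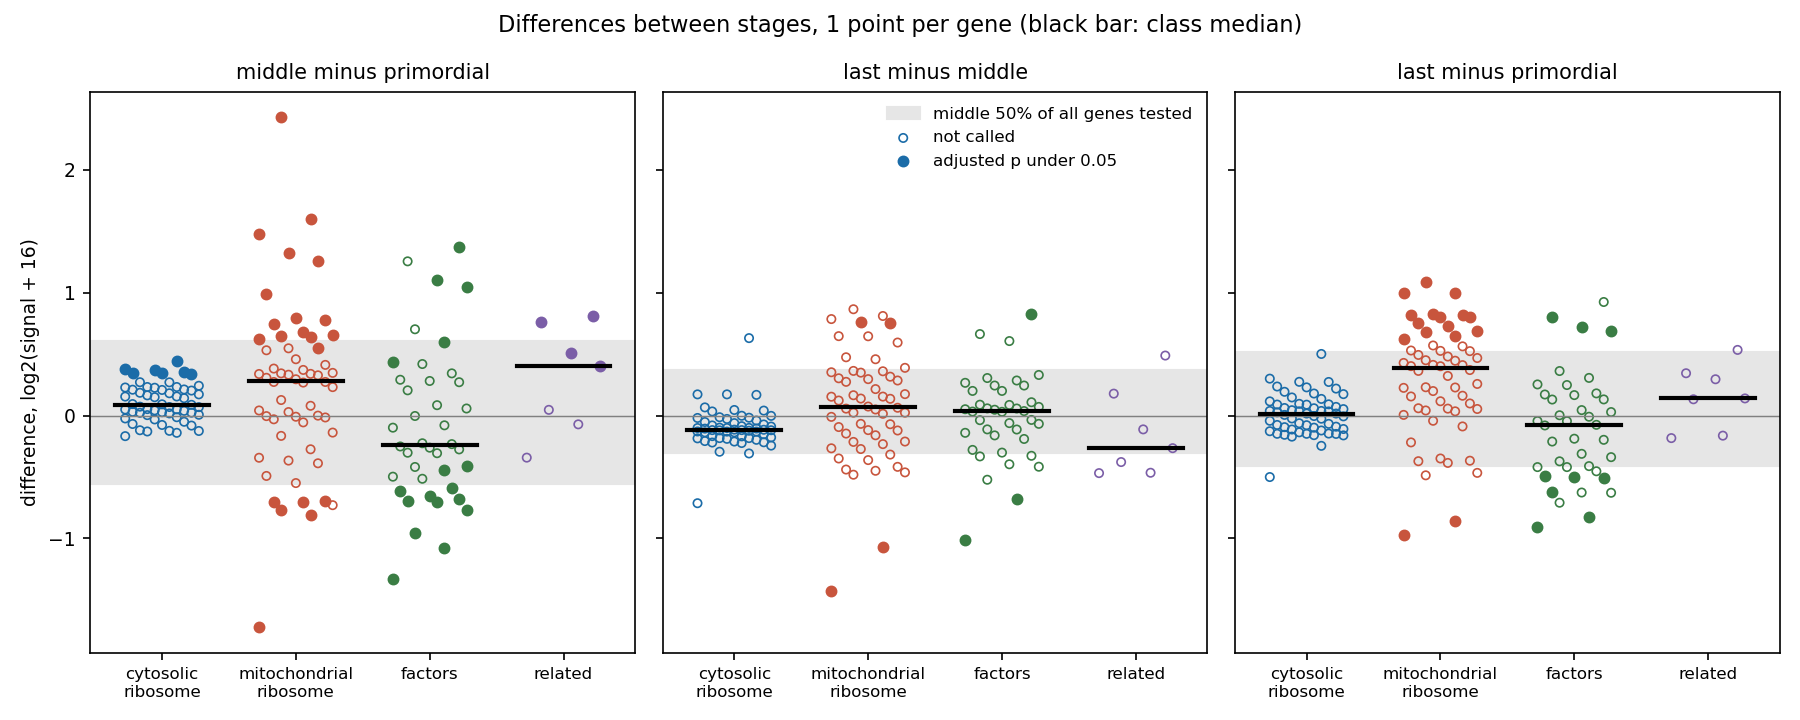
Difference in log2(signal + 16) between stages for each of the 162 genes (y axis), by class (x axis), in the 3 comparisons; filled points passed an adjusted p of 0.05, black bars are class medians and the grey band holds the middle 50% of all genes tested. Cytosolic ribosome genes lie in a narrow band, and 14 filled mitochondrial points lie above 0 in last minus primordial.

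The cytosolic ribosome genes with calls were RPL23, RPL27, RPL12, RPL6 and RPL14 of the large subunit and RPS4X and RPS15 of the small subunit, with differences between 0.34 and 0.44. RPL27 had signals of 25427 and 25395 on the middle arrays, against 19202 and 19762 on the primordial arrays. Its replicates differed by far less than the stages, and the difference was 0.38 ± 0.11 (SE, adjusted p = 0.0171). RPL6 read 24245 and 24351 on the middle arrays, against 18924 and 18957 on the primordial arrays. Here too the stages did not overlap, with a difference of 0.36 ± 0.12 and an adjusted p of 0.0286. None of the 7 calls held in all 16 alternative settings: the count was 0 without a filter, without the intensity trend of the fit, without middle replicate 1 or without primordial replicate 2, and it was 1 without middle replicate 2 or without primordial replicate 1.

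RPL23 had probe sets called in opposite directions. The brightest read 25649 and 23022 on the middle arrays, against 19079 and 16701 on the primordial arrays, a difference of 0.44 (adjusted p = 0.0161). A dimmer one read 934 and 989 on the middle arrays, against 1376 and 1368 on the primordial arrays, a difference of -0.51 (adjusted p = 0.0448). Another probe set had a difference of 0.55 and an adjusted p of 0.0513, so the direction of RPL23 was not settled by its probe sets.

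Well-known members of the cytosolic ribosome were not called. RPLP0, the base of the stalk that recruits elongation factors, read 25681 and 25247 on the middle arrays, against 23996 and 26774 on the primordial arrays. RPS6, the small subunit protein phosphorylated by S6 kinases, read 23937 and 22713 on the middle arrays, against 22873 and 22850 on the primordial arrays. The stages overlapped for both genes, with differences of 0.01 (adjusted p = 0.969) for RPLP0 and 0.03 (adjusted p = 0.853) for RPS6. RPSA, a small subunit protein also known as the laminin receptor, differed by 0.09 (adjusted p = 0.554), and RPL3, which reaches towards the peptidyl transferase centre, by 0.05 (adjusted p = 0.782). With quantile normalization RPL3 was called, at a difference of 0.36 and an adjusted p of 0.0305, and RPS6 was called with the mean of its probe sets, at 0.57 and an adjusted p of 0.0197.

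The narrow spread of the cytosolic ribosome, read from the brightest probe set of each gene, was not shared by other genes with a mean signal over 10000. Those genes were not matched to it more closely in level, and the median mean signal of the cytosolic ribosome was 22486. Of its 58 genes, 54 had a mean signal over 10000, and the highest single signal of the array, 47773, belonged to RPS18. Among 92 genes outside the translation set with a mean signal over 10000, 51 were called between middle and primordial arrays (55.4%), against 7 of the 54 cytosolic ribosome genes (13.0%). Their median absolute difference was 0.49, against 0.13 for the cytosolic ribosome. The probe sets of RPL26, RPL30 and RPL37 were exceptions in level, with mean signals of 120, 175 and 1360, and none of the 3 genes was called in any comparison. Dimmer probe sets of some cytosolic ribosome genes, such as RPL23 and RPLP0, differed more than the brightest ones. No test of the contrast between gene groups was made.

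**Figure D3:**
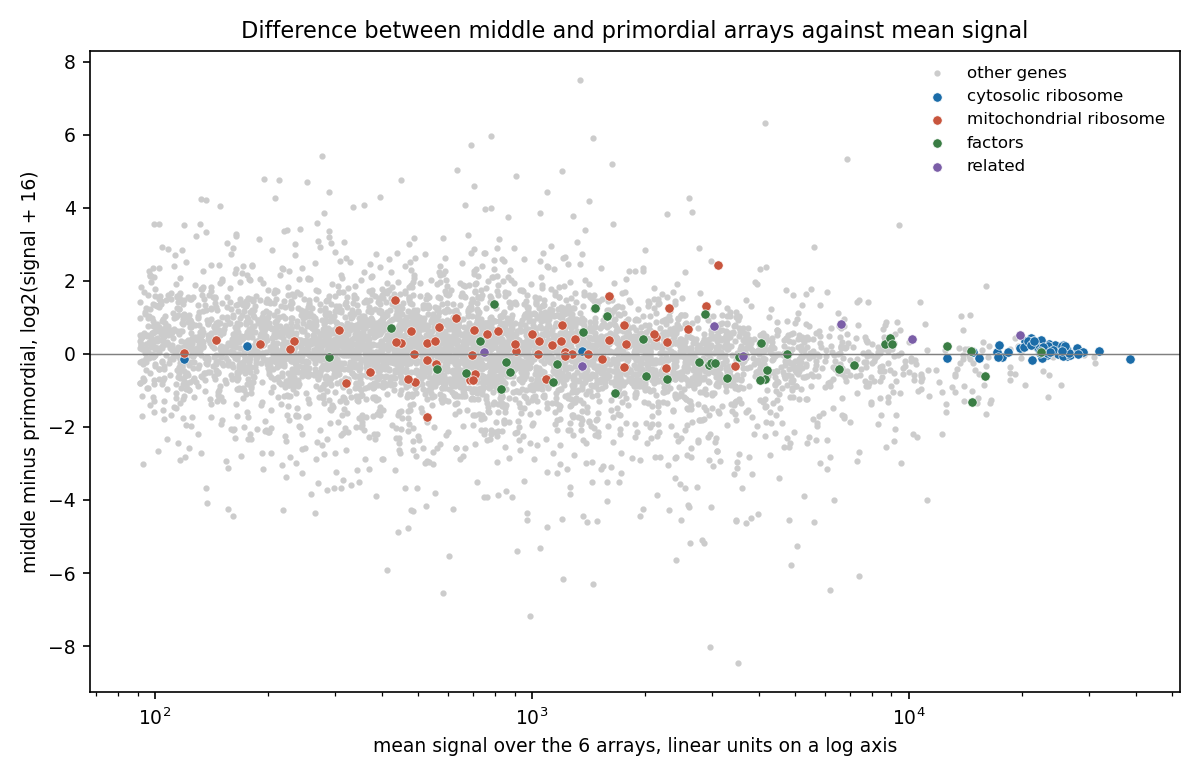
Difference between middle and primordial arrays in log2(signal + 16) (y axis) against the mean signal over the 6 arrays on a log axis (x axis), 1 point per gene tested. The cytosolic ribosome genes form a tight cluster at the bright end, where other genes spread more widely.

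Summed over all its probe sets, the cytosolic ribosome took 7.26% ± 0.23 of the array's signal on the primordial arrays, 8.22% ± 0.06 on the middle arrays and 7.39% ± 0.37 on the last arrays (SD, n = 2 each). The middle arrays had the highest share and did not overlap the others. The mitochondrial ribosome took 0.319% ± 0.011, 0.432% ± 0.039 and 0.423% ± 0.050 in the same order, so that the primordial arrays had the lowest share. For the factors the shares were 1.22% ± 0.023, 1.11% ± 0.050 and 1.13% ± 0.031, with the primordial arrays highest. That order rested on EIF1: without its 2 probe sets, a sum made after the values were seen, the shares were 1.02% ± 0.013, 1.04% ± 0.039 and 0.99% ± 0.014. By mean signal, 42 of 57 cytosolic ribosome genes were highest on the middle arrays (73.7%, against 35.9% of all genes tested). Of 58 mitochondrial ribosome genes, 37 were lowest on the primordial arrays (63.8%, against 43.7% of all genes), and of 40 factors 22 were highest there (against 36.1% of all genes). These counts of genes by stage used the arrays as deposited only. The sign of the cytosolic median in middle minus primordial changed with the scaling, as given above.

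In the small subunit of the mitochondrial ribosome, MRPS14 differed most. MRPS14, a protein of the family that binds ribosomal RNA in the head of the small subunit, had signals of 1058 and 1150 at the primordial stage, 6514 and 5535 at the middle stage and 2346 and 2110 at the last stage. No 2 stages overlapped, and the middle arrays were the highest. MRPS14 rose 5.38-fold on the middle arrays relative to the primordial arrays (difference 2.43 ± 0.17, adjusted p = 1.72e-05). Its last minus middle difference was -1.43 ± 0.17 (adjusted p = 0.000828) and its last minus primordial difference 1.0 ± 0.17 (adjusted p = 0.00291), and all 3 calls held in each of the 16 alternative settings. The oocyte markers were highest on the same arrays, at 20027 and 21758, as were the summed surface epithelium and erythroid markers. The part of these marker groups in the MRPS14 differences was not tested.

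MRPS17, of the family that binds the body of the small subunit, read 900 and 836 at the primordial stage, 2407 and 2929 at the middle stage and 1548 and 1020 at the last stage. It too was highest on the middle arrays without overlap. The middle minus primordial difference was 1.60 ± 0.23 (adjusted p = 0.000598), and the gene fell again on the last arrays, by 1.07 on the log2 scale relative to the middle arrays (adjusted p = 0.0138). MRPS21 read 1503 and 1563 at the primordial stage, 3485 and 4251 at the middle stage and 3208 and 3344 at the last stage. Unlike MRPS14 and MRPS17, MRPS21 had no called difference between the last and the middle arrays: it differed by 1.32 ± 0.17 in middle minus primordial (adjusted p = 0.000331) and by 1.09 ± 0.17 in last minus primordial (adjusted p = 0.00185), and its last minus middle difference was -0.23. MRPS22, one of the proteins found in mitochondrial but not bacterial ribosomes, read 785 and 919 on the middle arrays, against 424 and 414 on the primordial arrays. Its difference was 0.99 ± 0.20 (adjusted p = 0.00347).

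Other small subunit genes had smaller differences. MRPS5 and MRPS28 were higher on the middle arrays than on the primordial arrays, by 0.66 and 0.65. MRPS12, MRPS7 and MRPS34 were lower, by -1.72, -0.81 and -0.70. MRPS12, of the family at the decoding centre, read 203 and 300 on the middle arrays, against 768 and 945 on the primordial arrays. A second probe set of MRPS12 read 289 and 416 on the middle arrays, against 205 and 369 on the primordial arrays, with a difference of 0.31 that was not called (adjusted p = 0.429), and the call was lost when the probe sets were averaged.

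In the large subunit, MRPL50 and MRPL13 had the largest differences. MRPL50, another protein without a bacterial counterpart, read 730 and 545 on the middle arrays, against 234 and 198 on the primordial arrays. The stages did not overlap, and MRPL50 was 2.79-fold higher on the middle arrays (difference 1.48 ± 0.24, adjusted p = 0.000947). MRPL13, of a family found in ribosomes of all kingdoms, read 3288 and 3170 on the middle arrays, against 1446 and 1248 on the primordial arrays, again without overlap (difference 1.25 ± 0.17, adjusted p = 0.000465). MRPL39, MRPL2, MRPL18, MRPL30, MRPL32, MRPL48 and MRPL53 were higher as well, by 0.55 to 0.80. MRPL38, MRPL58 and MRPL15 were lower, by -0.77, -0.70 and -0.70. MRPL58 is a peptidyl-tRNA hydrolase built into the mitochondrial large subunit that helps to rescue stalled ribosomes. It read 413 and 532 on the middle arrays, against 742 and 807 on the primordial arrays.

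The calls for MRPS14, MRPS17, MRPS21, MRPS22, MRPL13 and MRPL50 held in each of the 16 settings. Those for MRPL39, MRPL2, MRPL15, MRPL38, MRPL58, MRPS7, MRPS12 and MRPS34 were lost in at least 1, and the other called genes were not followed singly. The count of 21 called genes was 12 without middle replicate 1, 13 without middle replicate 2, 11 without primordial replicate 1 and 9 without primordial replicate 2.

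**Figure D4:**
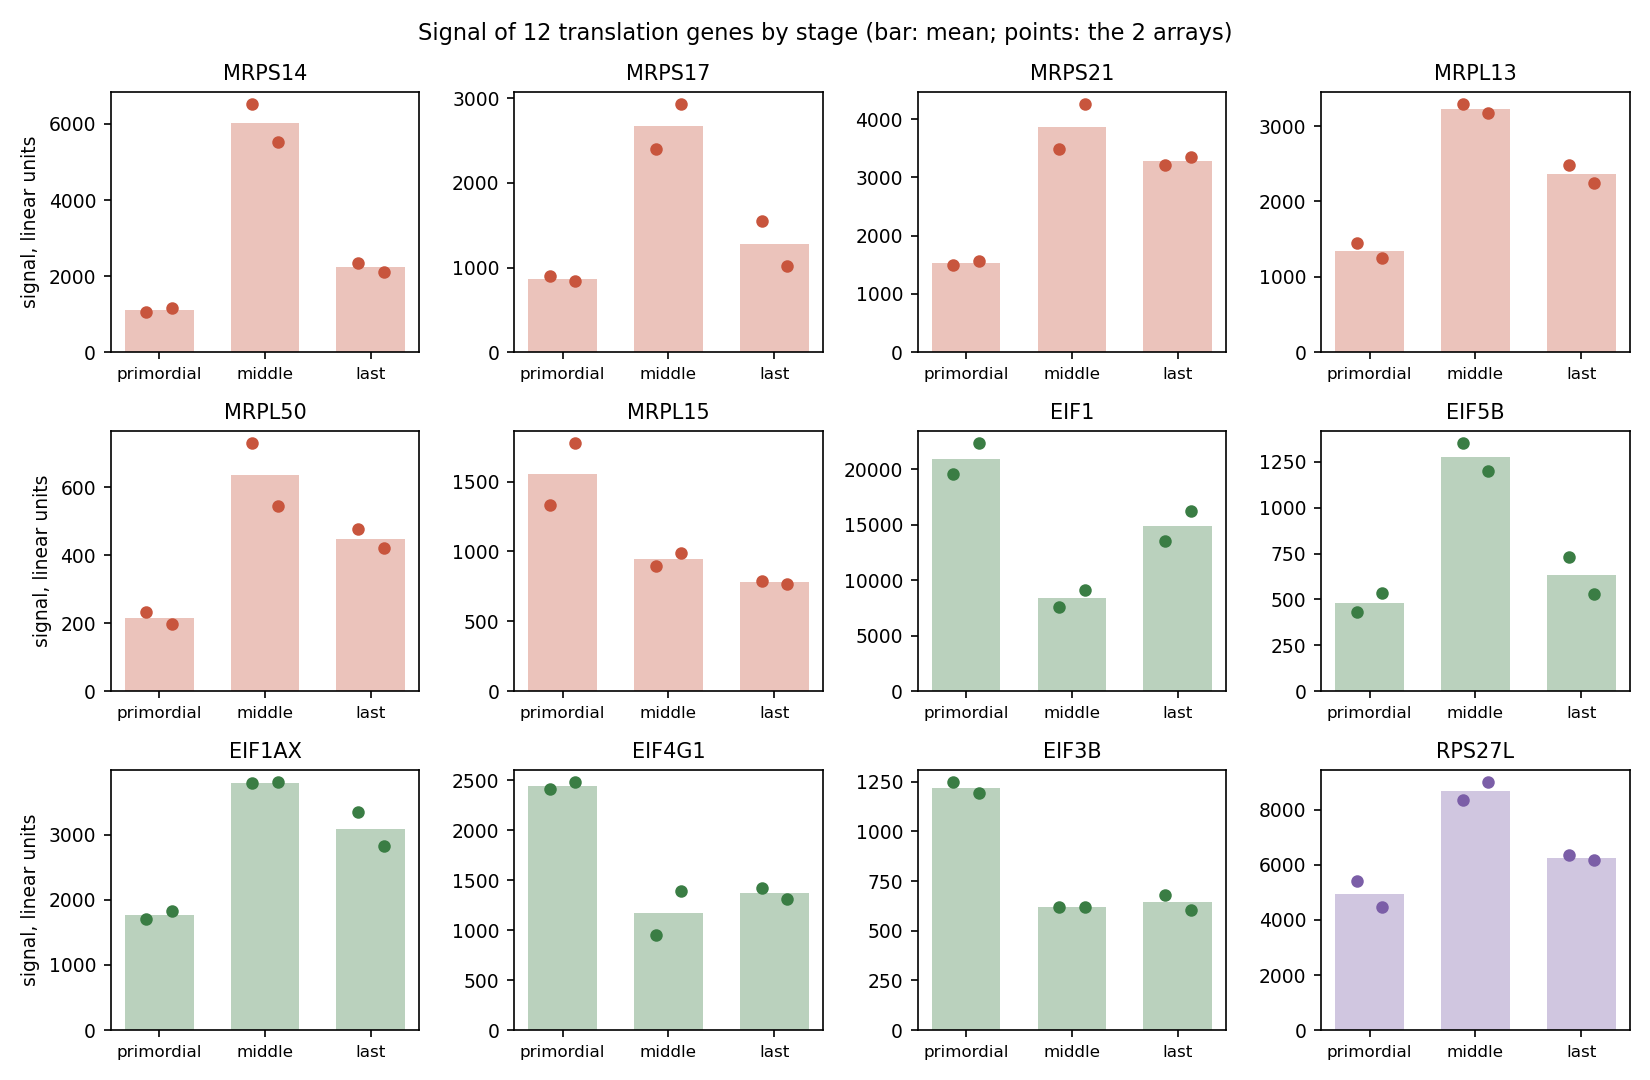
Signal in linear units (y axis) of 12 named genes at the primordial, middle and last stages (x axis); bars are means and points the 2 arrays of each stage. MRPS14, MRPS17 and EIF5B peak on the middle arrays, where EIF1 is lowest, while EIF4G1, EIF3B and MRPL15 are highest on the primordial arrays.

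Among the initiation factors that act at the start codon or in subunit joining, 2 were higher and 3 lower on the middle arrays than on the primordial arrays. EIF1, which guards the accuracy of start codon choice, had signals of 19611 and 22354 at the primordial stage, 7574 and 9170 at the middle stage and 13541 and 16250 at the last stage. Its stages did not overlap, and the middle arrays were the lowest. EIF1 fell by 1.33 on the log2 scale on the middle relative to the primordial arrays (SE 0.15, adjusted p = 0.000171) and rose by 0.83 on the last relative to the middle arrays (adjusted p = 0.00638). A second EIF1 probe set read 2678 and 3799 on the middle arrays, against 16591 and 16687 on the primordial arrays, and was called the same way in all 3 comparisons. Immune markers were also high on the primordial arrays (62929 and 61369) and low on the middle arrays (1795 and 1442). On the last arrays, where EIF1 was higher than on the middle arrays, they were low too (3006 and 5856). Summed granulosa markers were lowest on the middle arrays (16681 and 20818), against 41762 and 54041 on the primordial and 66807 and 62516 on the last arrays. The part of either marker group in the EIF1 differences was not tested.

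EIF1B, the paralog of EIF1, read 3188 and 3431 on the middle arrays, against 5864 and 4885 on the primordial arrays (difference -0.69 ± 0.16, adjusted p = 0.00714). EIF6, which keeps free large subunits from joining the small subunit, read 1666 and 2116 on the middle arrays, against 2953 and 3072 on the primordial arrays. Its stages did not overlap, and it differed by -0.68 ± 0.18 (adjusted p = 0.0141). EIF1AX, a partner of EIF1 in scanning, ran the other way, with 3794 and 3801 on the middle arrays against 1706 and 1821 on the primordial arrays. The middle arrays were 2.14-fold higher (difference 1.10 ± 0.17, adjusted p = 0.000785), and the last minus primordial difference was 0.80 (adjusted p = 0.0069). EIF5B, the GTPase that joins the subunits, read 431 and 535 at the primordial stage, 1350 and 1197 at the middle stage and 731 and 530 at the last stage. It was highest on the middle arrays, with differences of 1.38 ± 0.23 against the primordial arrays (adjusted p = 0.00129) and of -1.01 ± 0.23 in last minus middle (adjusted p = 0.0175).

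In the cap-binding group, EIF4G1, the scaffold that links the cap to the small subunit, read 956 and 1392 on the middle arrays, against 2412 and 2480 on the primordial arrays. The stages did not overlap, and the difference was -1.07 ± 0.21 (adjusted p = 0.00309). EIF4G2, a relative that cannot bind the cap-binding protein, read 14092 and 12613 on the middle arrays, against 19305 and 20971 on the primordial arrays. EIF4G3, the closest paralog of EIF4G1, differed in the other direction: it read 1848 and 1755 on the middle arrays, against 1167 and 1201 on the primordial arrays. Their differences were -0.59 ± 0.12 for EIF4G2 (adjusted p = 0.00401) and 0.60 ± 0.18 for EIF4G3 (adjusted p = 0.0208). EIF4H, which stimulates the helicase EIF4A, differed by -0.70 (adjusted p = 0.00449), but the mean of its 2 probe sets differed by 0.05, since the dimmer one ran the other way.

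EIF4EBP2, a repressor that competes with EIF4G for EIF4E, read 1940 and 2200 on the middle arrays, against 1058 and 930 on the primordial arrays. It was 2.06-fold higher on the middle arrays (difference 1.05 ± 0.23, adjusted p = 0.00515). A second probe set of EIF4EBP2 differed by 0.64 and narrowly missed the threshold (adjusted p = 0.0510), and 2 further ones differed by -0.34 and 0.08 without a call. EIF4E, the cap-binding protein itself, read 564 and 454 on the middle arrays, against 695 and 668 on the primordial arrays. Its difference of -0.42 was not called (adjusted p = 0.128), but it was called after median centring (-0.66, adjusted p = 0.0288) and with quantile normalization (-0.60, adjusted p = 0.0445).

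Of 9 subunits of EIF3, the large complex that holds the small subunit during initiation, 4 were lower and 1 higher on the middle arrays. EIF3B, part of its core, read 619 and 620 on the middle arrays, against 1247 and 1191 on the primordial arrays. The replicates nearly coincided within each stage, and the difference was -0.96 ± 0.19 (adjusted p = 0.00329). EIF3I, EIF3D and EIF3A were lower, by -0.65, -0.62 and -0.41, and EIF3H was higher, by 0.44. On middle replicate 1 the signals of EIF3I and EIF3D were 1934 and 1291, against 2973 and 1999 on middle replicate 2, and the call for EIF3I was lost without middle replicate 1.

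In the group of EIF2, EIF2A and EIF2B genes, 1 of 7 was called. EIF2 itself carries the initiator tRNA. EIF2S2, the beta subunit, was lower on the middle arrays by -0.44 (adjusted p = 0.0425), while EIF2S1, the alpha subunit whose phosphorylation halts initiation under stress, differed by -0.31 (adjusted p = 0.178) and was called only after median centring (adjusted p = 0.0302). EIF2AK2, a kinase of EIF2S1 that is activated by double-stranded RNA, read 453 and 1340 at the primordial stage, 1700 and 2100 at the middle stage and 986 and 2271 at the last stage. Its replicates lay far apart at the primordial and last stages, and the middle minus primordial difference of 1.26 ± 0.49 was not called (adjusted p = 0.0588). Replicate 2 was higher than replicate 1 at each stage, and with a replicate block EIF2AK2 was called in middle minus primordial (adjusted p = 0.00999) and in last minus primordial (0.93, adjusted p = 0.0456). Middle minus primordial was also called when only those stages were fitted (adjusted p = 0.0301), without either last array (adjusted p = 0.0314 and 0.0310) and without primordial replicate 2 (2.02, adjusted p = 0.00861).

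Of 6 elongation genes, 1 was called between middle and primordial arrays. EEF1E1, a small protein of the multi-synthetase complex, read 852 and 950 on the middle arrays, against 1769 and 1346 on the primordial arrays (difference -0.77 ± 0.24, adjusted p = 0.0280). EIF5A, which helps ribosomes through difficult stretches, differed by -0.25 (adjusted p = 0.223) and was likewise called only after median centring (adjusted p = 0.0318). EEF1A1, which delivers aminoacyl-tRNAs, was read from a probe set at 541 and 643 on the middle arrays, against 1063 and 677 on the primordial arrays, and was not called (difference -0.51, adjusted p = 0.118), though it was after median centring or without primordial replicate 2, at a lowest adjusted p of 0.0327. A control probe set of the array with the same symbol, left out of the fit, read 27331 and 27408 on the middle arrays, against 26692 and 31275 on the primordial arrays. With that probe set kept in the fit, an alternative chosen after the values were seen, EEF1A1 differed by -0.08 (adjusted p = 0.627). EEF1A2, EEF2, EIF4E1B, EIF4EBP1, EIF4ENIF1, EIF2AK1, EIF2AK3, EIF2AK4 and EIF5A2 were not analysed here.

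Among the factors, the calls for EIF1, EIF1AX, EIF5B, EIF4G1 and EIF3B held in each of the 16 settings. The count of 17 called factors was 9 without middle replicate 1 and 8 without primordial replicate 1. The median of the factors on middle replicate 1 was 11.08 on the log2(signal + 16) scale, against 11.53 on middle replicate 2, and without middle replicate 1 their median difference was -0.08. Middle replicate 1 had the largest 3′ to 5′ difference of the actin control, 4.98, and of the EF1A control, 1.34. For GAPDH primordial replicate 1 had the largest, 3.43, against 3.29 on middle replicate 1. The part of RNA quality in these values was not tested.

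All 4 called genes of the related group were paralogs of ribosomal proteins. RPS27L, a paralog of RPS27 that p53 induces, read 8355 and 8992 on the middle arrays, against 5413 and 4481 on the primordial arrays (difference 0.81 ± 0.15, adjusted p = 0.00222). RPL22L1, a paralog of RPL22, read 24850 and 22967 on the middle arrays, against 16542 and 16999 on the primordial arrays (difference 0.51 ± 0.12, adjusted p = 0.00766). RPL26L1 was higher by 0.76 and RPL36AL by 0.41. The calls for RPS27L and RPL26L1 held in each of the 16 settings, and those for RPL22L1 and RPL36AL did not. On the last arrays RPS27L read 6342 and 6182 and RPL22L1 17178 and 19674, below the middle arrays in both cases, but neither difference was called (adjusted p = 0.0637 and 0.0624). With quantile normalization both were, at adjusted p-values of 0.00583 and 0.0136.

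Between the last and the middle arrays few translation genes differed. Of 57 cytosolic ribosome genes 0 were higher and 0 lower, of 58 mitochondrial ribosome genes 2 were higher and 2 lower, and of 40 factors 1 was higher and 2 lower. Over the whole array 17.2% of probe sets were called, and among genes 8.8% were called higher and 7.23% were called lower. The class medians were -0.12 for the cytosolic ribosome, 0.07 for the mitochondrial ribosome and 0.04 for the factors, against 0.02 over all genes. A difference below 0 was seen in 49 of the 57 cytosolic ribosome genes, while 52.1% of all genes had a difference above 0. After median centring the cytosolic median was -0.01. In either direction, 24 of the 92 other genes with a mean signal over 10000 were called in this comparison (26.1%), against 0 of the 54 cytosolic ribosome genes.

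The called genes that fell on the last relative to the middle arrays were MRPS14 and MRPS17, EIF5B and EIF4G3. EIF4G3 read 1125 and 1113 on the last arrays, against 1848 and 1755 on the middle arrays, and so returned near its primordial signals of 1167 and 1201 (difference -0.68 ± 0.18, adjusted p = 0.0296). The genes that rose were EIF1, MRPL3 and MRPL58. MRPL3, of a family that reaches the peptidyl transferase centre, read 4370 and 4513 on the last arrays, against 2828 and 2433 on the middle arrays (difference 0.76 ± 0.16, adjusted p = 0.0126). A second MRPL3 probe set was called the same way, with 2708 and 2618 on the last arrays against 1362 and 1487 on the middle arrays. MRPL58 read 863 and 750 on the last arrays and 413 and 532 on the middle arrays (difference 0.76 ± 0.22, adjusted p = 0.0403).

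Of these 7 calls, that of MRPS14 held in all 16 settings. Without middle replicate 1 there were 2 called translation genes and without middle replicate 2 there were 3, and with quantile normalization there were 17, of which 5 were higher and 12 lower. After median centring 6 were higher and 3 lower, against 3 and 4 with the arrays as deposited. RPLP0 differed by -0.10 on its bright probe set and was not called, while its dim probe set, at 935 and 890 on the last arrays against 331 and 362 on the middle arrays, was called higher by 1.36.

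Between the last and the primordial arrays a minority of mitochondrial ribosome genes was called, most of them higher, and the cytosolic ribosome had no call. Of 58 mitochondrial ribosome genes 14 were higher, 2 were lower and 42 were not called, with a median difference of 0.39. Of 57 cytosolic ribosome genes 0 were higher and 0 lower, with a median of 0.02, and of 40 factors 3 were higher and 6 lower, with a median of -0.08. Over the whole array 33.2% of probe sets were called, and over genes the higher calls made up 17.2%, the lower calls 15.8% and the median difference 0.06. The called share of the mitochondrial ribosome, 27.6%, was not above that of the array. The mitochondrial split was 8 higher and 2 lower after median centring and 11 higher and 2 lower with quantile normalization, and the class median stayed above 0 in both, at 0.25 and 0.32. Of the 58 genes, 47 had a difference above 0, as did 54.4% of all genes. Summed stromal fibroblast markers, mostly DCN on the last arrays, were also higher there (13267 and 10110) than on the primordial arrays (913 and 689). So were the sums of oocyte, granulosa, theca, smooth muscle, endothelium and erythroid markers, while those of immune and surface epithelium markers were lower. The part of these marker groups in the mitochondrial ribosome result was not tested. For the factors the split was 2 higher and 13 lower after centring and 2 and 4 with quantile normalization, which also called 5 cytosolic ribosome genes higher and 0 lower.

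The mitochondrial genes with the largest rise were MRPS21, MRPS14, MRPL50, MRPS5, MRPL53, MRPL18, MRPL13 and MRPL2, by 0.80 to 1.09. MRPL50 read 476 and 420 on the last arrays, against 234 and 198 on the primordial arrays (adjusted p = 0.0113). MRPL53 read 2685 and 2615 on the last arrays and 1555 and 1432 on the primordial arrays. The stages did not overlap, and the difference was 0.82 ± 0.17 (adjusted p = 0.0071). MRPL15 and MRPS12 were the genes that fell. MRPL15 read 787 and 769 on the last arrays, against 1335 and 1773 on the primordial arrays (difference -0.97 ± 0.21, adjusted p = 0.00731). The count of 16 mitochondrial calls was 8 without last replicate 1, 7 without primordial replicate 1 and 3 without primordial replicate 2. Of the named genes MRPS14 and MRPS21 held in each of the 16 settings.

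Among the factors, EIF1AX, EIF4EBP2 and EIF2A were higher on the last than on the primordial arrays. EIF2A, an alternative carrier of initiator tRNA, read 2236 and 2597 on the last arrays, against 1452 and 1532 on the primordial arrays, and differed by 0.69 (adjusted p = 0.0169). EIF3B, EIF4G1, EIF6, EIF4G2, EIF1 and EIF1B were lower, by -0.91 to -0.49. EIF3B read 683 and 605 on the last arrays and 1247 and 1191 on the primordial arrays, and EIF4G1 read 1425 and 1317 on the last arrays and 2412 and 2480 on the primordial arrays. Neither gene overlapped between these stages. The count of 9 factors was 5 without last replicate 2, 2 without primordial replicate 1 and 4 without primordial replicate 2, and EIF1AX alone held its call in each of the 16 settings.

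With limma's F-test for a difference between any stages, 38 of the 162 genes were called, made up of 2 cytosolic ribosome genes, 19 mitochondrial ribosome genes, 14 factors and 3 related genes, while 48.6% of all genes tested were called. Probe sets of 1 gene often differed. In 46 genes with several tested probe sets, all of them had a difference of the same sign in 28 genes between middle and primordial, in 26 between last and middle and in 25 between last and primordial arrays. Of 24 such genes with a call in middle minus primordial, 4 had all their probe sets called.

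Other genes of the pathway were counted in lists that the rule did not choose. Their counts stand beside the calls over all genes, which were 22.9% higher and 22.5% lower in middle minus primordial, 8.8% and 7.23% in last minus middle, and 17.2% and 15.8% in last minus primordial. Of 12 translation factors and synthetases of mitochondria, 7 were higher and 0 lower on the middle than on the primordial arrays, with a median of 0.76. There were 4 higher and 1 lower after median centring, 5 and 0 with quantile normalization, and 3 and 0 without primordial replicate 2. On the last relative to the primordial arrays 4 were higher and 0 lower, and 2 and 0 without last replicate 1, primordial replicate 1 or primordial replicate 2. MRRF, which recycles mitochondrial ribosomes, read 910 and 964 on the middle arrays, against 352 and 411 on the primordial arrays (difference 1.27, adjusted p = 0.000955). MTRF1, a mitochondrial release factor, was higher by 1.65, MTFMT, which formylates the mitochondrial initiator tRNA, by 1.26, and the elongation factor TSFM by 0.97. Last minus middle had 0 higher and 0 lower genes in this list. Cytosolic aminoacyl-tRNA synthetases and their scaffolds had 4 higher and 6 lower of 17 in middle minus primordial, against 22.9% and 22.5% of all genes, where DARS was higher by 1.71 and AIMP2, SARS and GARS were lower by -1.27, -1.15 and -1.09. The 10 calls were 6 without middle replicate 1 or primordial replicate 1 and 5 without primordial replicate 2, while the 4 named calls held in all settings.

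Ribosome biogenesis genes, which make ribosomal RNA and assemble the subunits in the nucleolus, had 1 higher and 6 lower of 30 on the middle than on the primordial arrays, and 0 higher and 7 lower on the last than on the primordial arrays. Most were not called, and the list's median differences were 0.07 and -0.22. Of all genes 22.9% were higher and 22.5% lower in the first of these comparisons, and 17.2% and 15.8% in the second. In middle minus primordial 0 were higher and 3 lower without middle replicate 1 or either primordial array, and in last minus primordial 0 and 4 without primordial replicate 2. MYC, a transcription factor that drives many of them, read 621 and 566 on the middle arrays, against 4508 and 4278 on the primordial arrays. It was lower by -2.86 in middle minus primordial (adjusted p = 1.14e-05) and by -3.0 in last minus primordial (adjusted p = 2.29e-05). NOP56, a core protein of the complexes that methylate ribosomal RNA, was lower by -1.09 and -1.35 in the same comparisons, RRP1B was lower by -0.94 and -0.91, and POLR1C, a subunit of RNA polymerase I, by -0.69 and -1.22. NOP2 was lower by -1.21 in last minus primordial. Between the last and the middle arrays 0 were higher and 3 lower.

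The integrated stress response, in which phosphorylated EIF2S1 favours translation of ATF4, had 1 higher and 5 lower of 8 on the middle than on the primordial arrays and 5 higher and 3 lower on the last than on the middle arrays. Among all genes 22.9% and 22.5% were called in the first comparison and 8.8% and 7.23% in the second, where 4 were higher and 1 lower without either middle array. ATF4 read 17089 and 15761 at the primordial stage, 3150 and 3165 at the middle stage and 6589 and 8930 at the last stage. It was lowest on the middle arrays, with differences of -2.37 in middle minus primordial (adjusted p = 1.6e-05) and -1.10 in last minus primordial (adjusted p = 0.00163). ATF3, CEBPB and PPP1R15A, which restores EIF2S1 to its unphosphorylated form, were lower by -4.57, -4.56 and -3.26 on the middle arrays than on the primordial arrays, and higher by 4.40, 3.74 and 2.40 on the last than on the middle arrays. ASNS, asparagine synthetase, was lower by -2.23 on the last than on the middle arrays. In last minus primordial the list had 0 higher and 4 lower genes, and 0 and 2 without last replicate 1 or primordial replicate 1.

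Of 8 genes of mTOR signalling and the S6 kinases 3 were higher and 2 lower in middle minus primordial, 0 were called in last minus middle, and 1 was higher and 2 lower in last minus primordial. Without any one of the middle or primordial arrays 1 was higher and 2 lower in middle minus primordial. RPS6KA1, a ribosomal S6 kinase that is regulated mainly by ERK, read 123 and 132 on the middle arrays, against 667 and 593 on the primordial arrays (difference -2.17, adjusted p = 0.000117). RHEB, the GTPase that activates mTOR, was lower by -1.03, while SESN1 and AKT1S1, both inhibitors of mTOR complex 1, were higher by 1.21 and 0.80. AKT1S1 lost its call under both other scalings. Of 9 poly(A)-binding and repressor genes 2 were higher and 2 lower in middle minus primordial. PABPC1, which binds the poly(A) tail and EIF4G, read 9841 and 11811 on the middle arrays, against 17208 and 21902 on the primordial arrays (difference -0.85, adjusted p = 0.00189). DDX6, a helicase of repressed messenger RNA, was higher by 1.48 and PABPN1 by 0.65, and CPEB2 was lower by -1.05, a call that was lost in 5 of 16 settings. Of 14 genes of the nascent chain and its targeting to the endoplasmic reticulum, 1 was higher (SRP19, by 0.73) and 2 were lower (SEC61B, by -0.60, and SRP54, by -0.54). None of these 3 calls held in all 16 settings, and SRP54 held in 8. There were 0 higher and 3 lower after median centring, 4 and 0 with quantile normalization, and 0 and 0 without middle replicate 1 or primordial replicate 1.

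**Figure D5:**
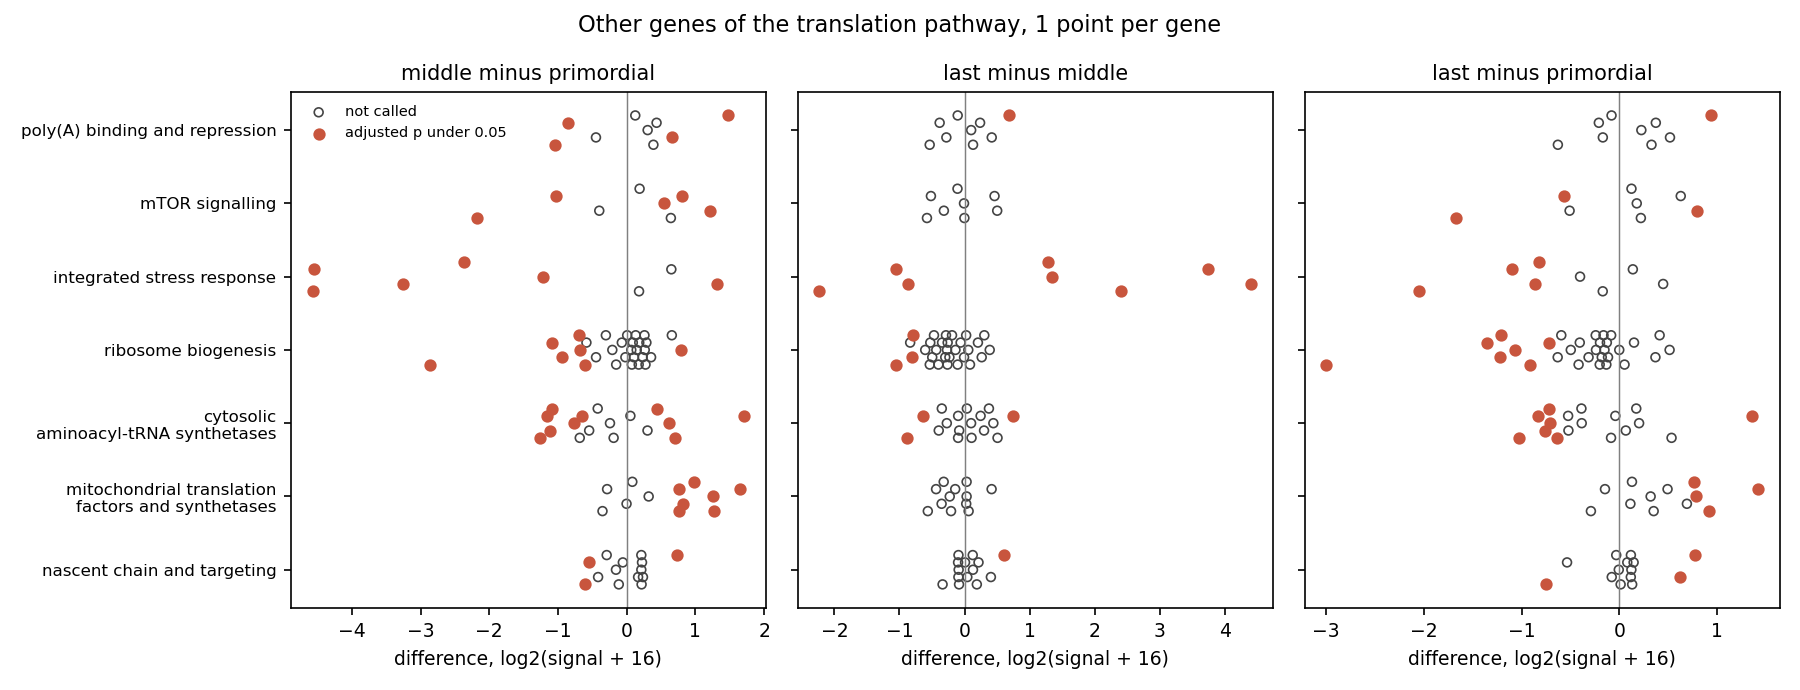
Difference in log2(signal + 16) (x axis) of the other pathway genes by list (y axis) in the 3 comparisons; filled points passed an adjusted p of 0.05. The filled points of the mitochondrial translation list lie above 0, and those of ribosome biogenesis lie below 0 except for 1 gene in middle minus primordial.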

How the data were processed

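RNA of 6 samples, 2 for each of 3 stages, had been measured on single-channel arrays. Total RNA was extracted with Trizol and labelled with biotin, per the labels' protocols, and GCOS, the array maker's software, gave the values, per the submitters' processing notes. No version of GCOS is given in the sources used here. Each deposited value is an intensity on a linear scale, 1 for every probe set, and the authors had scaled the arrays, whose mean without the lowest and highest 2% was 500.1 on each.

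Samples were grouped by title. Genes were named from the platform annotation, and 162 of the 164 were found in RefSeq's table through their gene ID. Sequences and positions were not used here. The 124 control probe sets and the 40% of the others with the lowest mean signal (under 91.3) were left out, which left 14399. The log2(signal + 16) values of all 6 arrays were fitted together with limma 3.58.1 in R 4.3.3 (lmFit, eBayes with an intensity trend), with 3 residual and 6.33 prior degrees of freedom. Tests were two-sided, with Benjamini-Hochberg adjustment over all probe sets tested and a threshold of 0.05. Precision is limited by having 2 arrays a stage. The fit was tested on simulated data. Python 3.11.15, pandas 2.3.3, numpy 2.4.6 and matplotlib 3.10.9 were used for tables and figures.

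The members, lists, tests and alternatives were chosen with earlier results of these data known. Named were, per comparison, up to 8 called genes of each class with the largest difference in each direction, a fixed set of 24 genes, genes whose probe sets were called in opposite directions, and up to 4 called genes with the smallest p of each pathway list; RPL26, RPL30, RPL37, RPS15A, EIF1AY, RPS18, EIF3A, EIF3D, EIF2S2 and genes named in a complete set of calls stand outside that rule and were chosen after their values were seen. A list of release and recycling factors was not analysed here. Alternatives were other pseudocounts (1 and 64), filters, scalings, a replicate block, fits of only the 2 stages compared or without the intensity trend, leaving out each array, and other choices of probe set. The EEF1A1 control probe set, the factor share without EIF1 and the list counts by setting were added after seeing the data.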

Additional observations from a re-analysis of the deposited data

How the results depend on the processing

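Of 38 named calls of translation genes in middle minus primordial, 13 held in all 16 alternatives, as did 1 of 7 in last minus middle and 3 of 19 in last minus primordial. Of the named calls from the pathway lists, 17 of 27, 4 of 12 and 8 of 23 held in every alternative that tested them. Counts are of called genes unless medians are named, and the cause of a change was not tested. In middle minus primordial, no filter gave 32 translation and 0 cytosolic ribosome genes, and no intensity trend 31 and 0. Quantile normalization gave 11 cytosolic genes, and counting a gene with any called probe set gave 16. Leaving out the brightest 1% gave 0 cytosolic genes. That setting drops most of the class, whose median percentile by mean signal was 99.7, so its count cannot test the class. Class medians there were -0.152 (cytosolic), 0.045 (mitochondrial) and -0.482 (factors) after median centring, and 0.063 (mitochondrial) with quantile normalization. In last minus middle, quantile normalization gave 17 translation genes and 8 factors, any called probe set gave 13 translation genes, 2 cytosolic genes and 5 factors, and the mean of probe sets gave 2 cytosolic genes. The cytosolic median there was -0.008 after centring, -0.040 with quantile normalization and -0.002 without the brightest 1%. The last of these rests on the minority of cytosolic genes that this setting leaves. In last minus primordial, cytosolic genes numbered 1 with the lowest 60% left out, 5 with quantile normalization, 3 when probe sets were averaged and 8 when any called probe set counted, which gave 40 translation genes. No intensity trend gave 15 translation genes and 4 factors there, no filter 5 factors, and centring 10 mitochondrial genes and 15 factors, with cytosolic medians of -0.116 after centring and 0.083 with quantile normalization. With the mean of its probe sets, EIF4H had 0.050 in middle minus primordial and RPLP0 0.629 in last minus middle (adjusted p = 0.0337), both of opposite sign. The share of called probe sets that were higher was 62.7% in middle minus primordial (47.5% centred, 52.5% quantile), 42.3% in last minus middle (54.8% and 48.1%) and 59.7% in last minus primordial (47.4% and 51.1%).

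Leaving out 1 array at a time gave these ranges. In middle minus primordial, called probe sets numbered 4356 to 7189, translation genes 23 to 54, cytosolic genes 0 to 8, mitochondrial genes 9 to 23 and factors 8 to 19, and the mitochondrial median was 0.113 to 0.377. In last minus middle, probe sets numbered 727 to 2172, translation genes 2 to 7, mitochondrial genes 1 to 4 and factors 0 to 2, and the cytosolic median was -0.177 to -0.047. In last minus primordial, probe sets numbered 2730 to 4297, translation genes 7 to 23, mitochondrial genes 3 to 15 and factors 2 to 8, and the cytosolic median was -0.051 to 0.079. A stage left with 1 array was assumed to vary like the others. No pairing by replicate number was seen over all probe sets tested: deviations of same-numbered arrays correlated at 0.059, 0.032 and -0.048. These correlations cannot show whether same-numbered samples shared an animal. With a replicate block 43, 6 and 23 translation genes were called in middle minus primordial, last minus middle and last minus primordial.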

Other observations

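Some probe sets carry the symbol of a translation gene together with that of another gene, so their signal cannot be given to either and they stood outside the 164 genes. A probe set shared by RPL36 and DUT read 15477 and 15217 at the primordial stage, 18898 and 20676 at the middle stage and 18308 and 20237 at the last stage. One shared by RPL10 and ANAPC11 read 22873 and 26995 at the primordial stage, 26208 and 25729 at the middle stage and 22627 and 26009 at the last stage. One shared by EIF4EBP3 and ANKHD1 read 255 and 223 at the primordial stage, 347 and 414 at the middle stage and 275 and 370 at the last stage.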
